A study of Schizosaccharomyces pombe with 20 samples.

Results

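In the fission yeast Schizosaccharomyces pombe, 1189 first introns of genes with 2 to 5 introns were followed on splicing-sensitive microarrays, out of 4885 introns that had a probe. A gene entered this class when the highest number among its intron probes was 2, 3, 4 or 5, and its intron numbered 1 was then taken. The class held 1221 genes, of which 32 had no probe for intron 1. Genes with 2 introns gave 643 of the first introns, genes with 3 gave 322, genes with 4 gave 153 and genes with 5 gave 71. The same genes held 2064 later introns, which served as the comparison within each gene, and 1098 of the first introns also had a probe across the junction of exons 1 and 2.

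Introns are removed from pre-mRNA by the spliceosome, a set of small nuclear ribonucleoproteins that recognise each intron and join the flanking exons. Fission yeast introns are short and most of its spliced genes carry few of them, so that each intron can be read with a probe of its own. The first intron lies nearest to the cap and is the first to be transcribed, and the later introns of the gene share its promoter, its transcript and its 3' end. A transcript that keeps an intron is commonly a target of nuclear or cytoplasmic RNA decay. An intron probe therefore reports pre-mRNA, a junction probe reports mature mRNA and an exon probe reports total mRNA.

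Each array compared 1 deletion strain with the wild type ED666, and 20 arrays covered 12 strains. Strains deleted for aar2, ctr1, ppn1, pwi1, smd3, SPAC18G6.13, SPAC20H4.06c or ssu72 had 2 arrays each, from separately grown cultures, and strains deleted for ash2, pht1, SPCC162.01c or swd1 had 1 array each. All deletion strains came from the Bioneer haploid library and carried KanR at the deleted locus, a marker that the wild type's label does not name. Among the deleted genes, aar2 encodes an assembly factor of the U5 particle, smd3 a core Sm protein, pwi1 a protein with the PWI fold found in splicing factors, ppn1 and ssu72 proteins of the 3' end processing machinery, pht1 the histone variant H2A.Z, and ash2 and swd1 subunits of the Set1 histone methyltransferase complex. Values are log2 ratios of deletion strain over wild type, so that 1 unit is a 2-fold difference. The deletion strain was in the Cy3 channel on every array, and a probe's own response to the dyes and a difference shared by all strains therefore cannot be told apart.

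Several arrays stood apart from the rest or went against their labels. The exon probe of the deleted gene lay between -6.45 and -1.19 on 14 arrays, whereas it was -0.50 and -0.93 on the arrays labelled smd3, -0.41 and -0.26 on those labelled SPAC18G6.13, 0.59 on the array labelled SPCC162.01c and -0.86 on replicate 2 labelled ctr1. Each of these 6 values lay within or above the range of the same probe in the other strains, and these arrays are called by their label below. The M mating-type gene mat3-Mc lay between -7.43 and -2.84 on 17 other arrays but at 0.07 on replicate 1 labelled smd3 and at -0.40 on Δpwi1 replicate 1. On that smd3 array mat1-Mc was also near its wild-type level, at -0.32 against -5.73 to -2.59 on 18 other arrays, and on Δpwi1 replicate 1 it had no value. The part of these differences in the results was not tested. Between 13.6% and 99.2% of the 1189 first introns had a value on an array, and 83 had one on all 20.

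First introns had lower log2 ratios in pre-mRNA than the later introns of the same genes. The median over first introns was below the median over later introns on all 20 arrays. With each intron's junction value subtracted, it was below on 16 of the 20 arrays. The exceptions were Δpwi1 replicate 1, replicate 1 labelled smd3 and both arrays labelled SPAC18G6.13. For the junction probes alone, the median was lower at first introns on 13 arrays. When intron 1 was set against the mean of the later introns of its own gene on the same array, the median log2 difference was below 0 on all 20 arrays and ranged from -0.22 on Δctr1 replicate 1 to -0.03 on replicate 1 labelled smd3. Intron 1 was the higher one in 33.9% to 47.3% of genes per array. The spread between genes was far wider than this shift, as shown by the quartiles in the plot of within-gene differences by array.

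**Figure D1:**
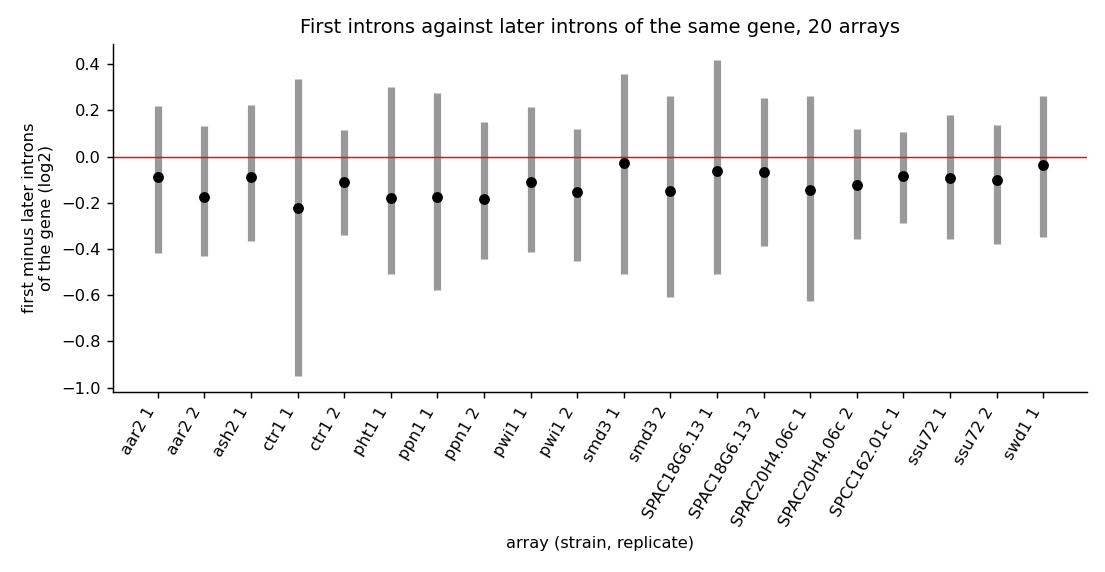
Log2 difference between intron 1 and the mean of the later introns of the same gene on each of the 20 arrays; points are medians over genes and bars span the lower to the upper quartile. All 20 medians lie below 0, between -0.22 and -0.03, and all 20 bars cross 0.

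The same order was seen at each number of introns. In genes with 2 introns, the median over the 20 array medians was a log2 ratio of 0.19 for intron 1 and 0.29 for intron 2. In genes with 3 introns it was 0.20, 0.28 and 0.25 for introns 1 to 3, and in genes with 4 introns 0.19, 0.21, 0.31 and 0.26 for introns 1 to 4. In genes with 5 introns it was 0.17 for intron 1 and between 0.20 and 0.30 for the other positions. The within-gene median was below 0 on 20, 19, 18 and 16 of the 20 arrays for genes with 2, 3, 4 and 5 introns. It was also below 0 on all 20 arrays for the 86 genes measured on 18 or more arrays, and on 19 and 20 arrays for genes whose identifier did and did not end in c, the letter that marks the reverse strand. At the edges of the class, the median over arrays for intron 1 was 0.21 in genes with 1 intron and 0.19 in those with 2, and 0.18 in genes with 5 introns over 16 arrays and 0.12 in those with 6 over 14 arrays. First introns also had a value less often than later introns on all 20 arrays, and the part of this in the shift was not tested.

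**Figure D2:**
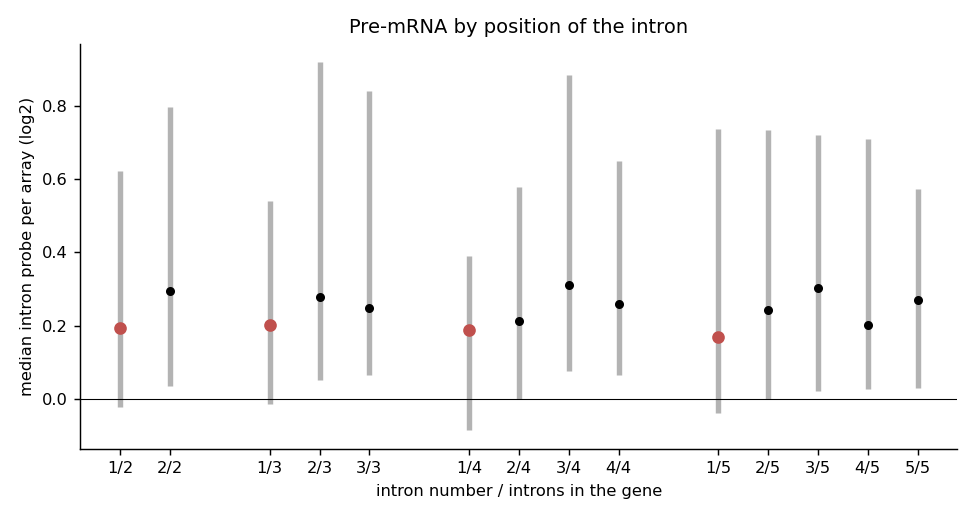
Median log2 ratio of intron probes by position of the intron, in genes with 2, 3, 4 and 5 introns; points are medians of the 20 array medians, bars span the lowest to the highest array, and red marks intron 1. Intron 1 has the lowest point in each of the 4 groups, with overlapping bars.

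A fit with 1 value per strain tested which genes carried such a difference across strains. Of 390 genes measured in 8 or more strains, intron 1 lay below the later introns in 92 and above them in 23 (limma, Benjamini-Hochberg adjusted p under 0.05). Over all 419 genes tested, those with 6 or more introns included, 22.7% were called below and 6.68% above, so that the class made up nearly the whole background. The median of the 390 mean differences was -0.10, and 65.6% lay below 0. All strains were read against the same wild type with the same dye orientation. Of the called genes, 28 lay below and 4 above in every strain in which they were measured, by the mean of the strain's arrays. Fewer were called, among fewer genes tested, without the strain aar2, 57 below and 13 above, and without Δppn1, 58 below and 12 above. The number above was 14 without ctr1 and 13 without SPAC18G6.13.

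**Figure D3:**
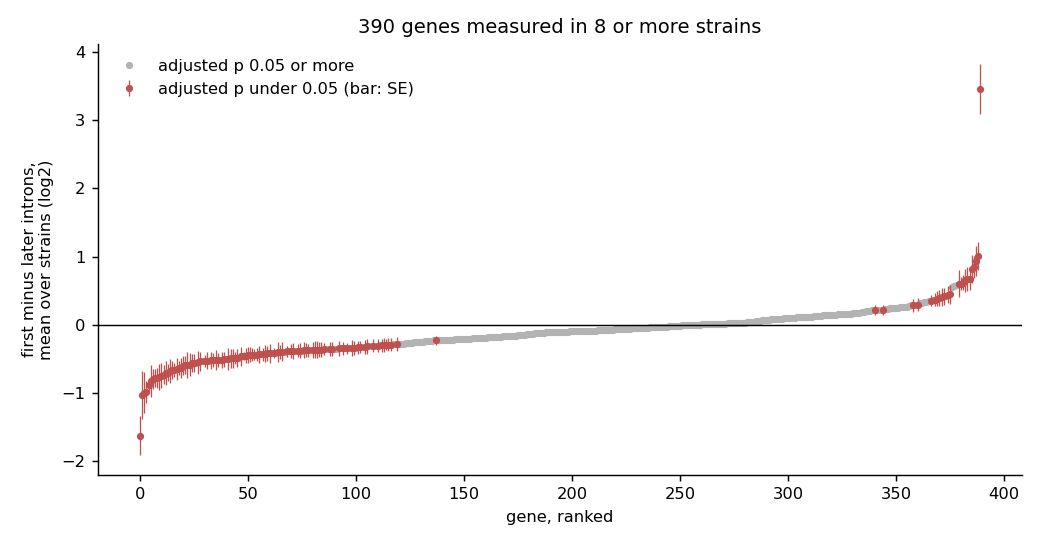
Mean over strains of the log2 difference between intron 1 and the later introns, for 390 genes ranked from the most negative to the most positive; red points passed an adjusted p of 0.05 and bars are their SE. The 92 called genes below 0 outnumber the 23 above 0, and tom20 stands alone at 3.46.

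Intron 1 of tom20, which encodes a receptor of the mitochondrial outer membrane translocase, was the most raised relative to its gene. Its log2 ratio had a median of 3.73 over the 20 arrays, with a lowest value of -0.61 and a highest of 5.24, whereas the mean of introns 2 and 3 had a median of 0.55 and ranged from -0.76 to 1.25. The 2 low values of intron 1 were those of replicate 1 labelled smd3, -0.61, and of Δpwi1 replicate 1, 0.29, the arrays on which mat3-Mc was near 0. On the 18 other arrays intron 1 lay between 2.61 and 5.24 and did not overlap with the later introns. Intron 1 was higher than the mean of the later introns on 18 of the 20 arrays and lower on 2. The mean difference over strains was 3.46 ± 0.37 (SE, 12 strains, adjusted p = 2.0e-05). The junction probe of exons 1 and 2 was below 0 on all 20 arrays, between -1.17 and -0.01.

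Intron 1 also lay above the later introns in every strain for mbx1, mms1 and siw14. For mbx1, a MADS-box transcription factor gene, intron 1 ranged from 0.40 to 2.46 with a median of 0.92, and intron 1 was the higher on all 20 arrays. The mean difference was 0.60 ± 0.10 (SE, 12 strains, adjusted p = 0.0012). For mms1 it was 0.62 ± 0.11 (SE, 10 strains, adjusted p = 0.0023), with intron 1 between 0.03 and 2.33 and the higher on 14 of 15 arrays. For siw14 it was 0.37 ± 0.09 (SE, 8 strains, adjusted p = 0.014), with intron 1 between 0.15 and 1.16 and the higher on 10 of 12 arrays. These 3 genes differed from tom20 by the smaller size of the difference. The call for mms1 was lost on replicate 2 arrays with genes in 6 or more strains (adjusted p = 0.073).

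In the opposite direction, the genes with the largest differences of 1 sign in every strain were pck1, sgt2, gnd1, got1, pex3, taf13, dbp2 and mug8. For gnd1, which encodes 6-phosphogluconate dehydrogenase of the pentose phosphate pathway, intron 1 had a median log2 ratio of 0.33 (lowest -0.94, highest 1.49) and introns 2 to 4 a median of 1.27 (lowest -0.28, highest 2.23). Intron 1 was the lower on 19 of the 20 arrays. The mean difference was -0.88 ± 0.09 (SE, 12 strains, adjusted p = 2.0e-05). For taf13, a subunit gene of the general transcription factor TFIID, intron 1 had a median of 0.62 and intron 2 of 1.16, again with intron 1 the lower on 19 of 20 arrays. The mean difference was -0.78 ± 0.13 (SE, 12 strains, adjusted p = 0.0012). This call was lost with the ratio in place of pre-mRNA (adjusted p = 0.77), and the junction of exons 1 and 2 of taf13 was lower than that of exons 2 and 3 on all 20 arrays.

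For sgt2, a co-chaperone gene, intron 1 was the lower on all 12 arrays that measured both introns, with a mean difference of -0.98 ± 0.16 (SE, 8 strains, adjusted p = 0.0021). For pex3, a gene of peroxisome formation, it was the lower on all 18 such arrays, with a mean difference of -0.80 ± 0.15 (SE, 11 strains, adjusted p = 0.0025). For pck1, a protein kinase C gene, the mean difference was -0.99 ± 0.30 (SE, 8 strains, adjusted p = 0.028), and intron 1 ranged from -3.13 to 1.09 on the 11 arrays that measured it. For got1, a gene of Golgi transport, it was -0.82 ± 0.23 (SE, 8 strains, adjusted p = 0.022), a call lost against intron 2 alone (adjusted p = 0.10). For dbp2, a DEAD-box RNA helicase gene, intron 1 had a median of -0.02 against 0.83 for intron 2. Its mean difference was -0.66 ± 0.10 (SE, 11 strains), with intron 1 the lower on 17 of 19 arrays. For mug8, the medians were 0.57 and 1.22, with intron 1 the lower on 16 of 18 arrays. Intron 1 of mug8 was thus above its wild-type level and intron 2 further above it.

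**Figure D4:**
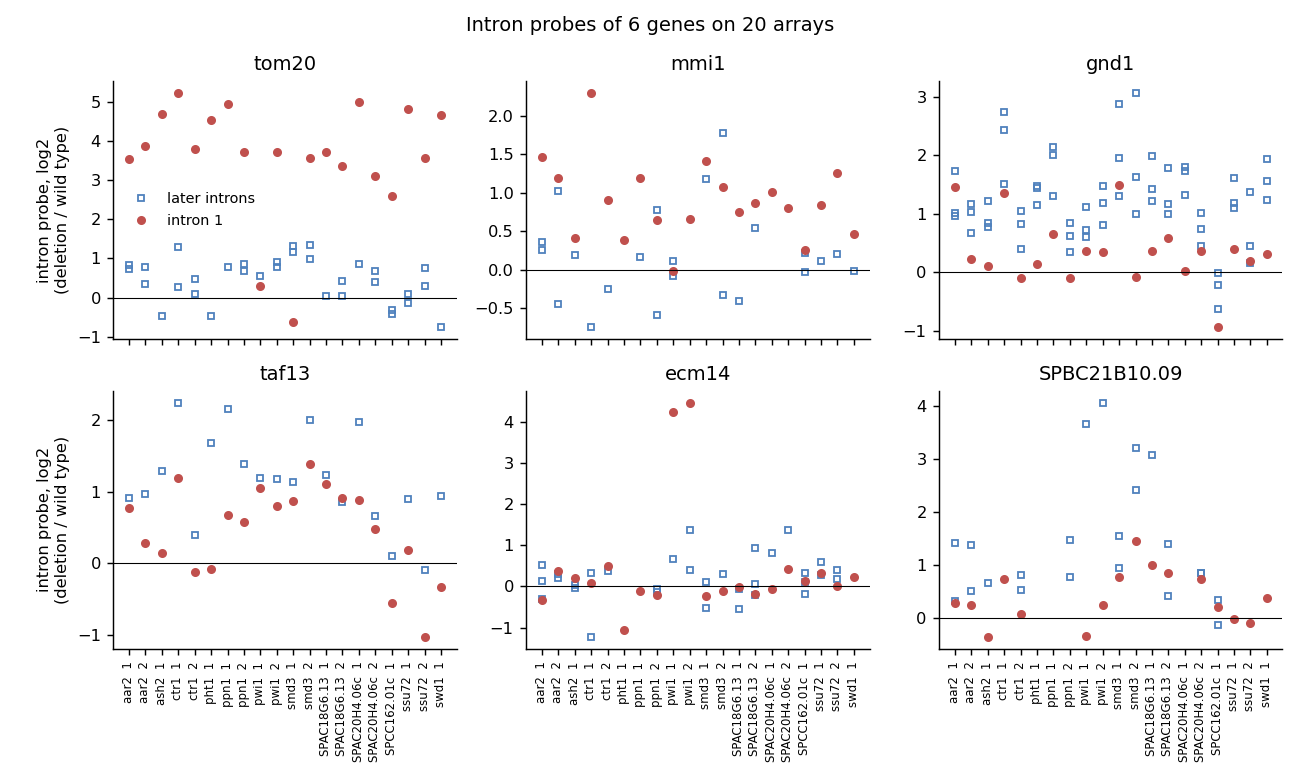
Log2 ratio of intron 1 (red circles) and of each later intron (open blue squares) on the 20 arrays for 6 genes. Intron 1 of tom20 lies at 2.61 or above on 18 arrays and near 0 on replicate 1 labelled smd3 and on Δpwi1 replicate 1; intron 1 of ecm14 is above 4 on the 2 Δpwi1 arrays and at or below 0.50 on the others; in SPBC21B10.09 the later intron is the raised one in Δpwi1.

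The log2 ratio of an intron to its own junction, taken as intron probe minus junction probe, set pre-mRNA against mature mRNA of the first intron within each strain. It is a ratio of levels, in which less splicing and a change in the stability of either RNA cannot be told apart. Among the arrays labelled smd3, 259 of 412 first introns rose in ratio and none fell, beside 61.6% of all introns tested called higher and 0.217% lower. Among those labelled SPAC18G6.13 it was 89 of 344, beside 28.4%, and in the strain ctr1 75 of 373, beside 23%. In ΔSPAC20H4.06c 35 of 191 rose, beside 16.9%, in Δpwi1 57 of 356, beside 14.6%, and in Δppn1 33 of 259, beside 14.7%. In Δaar2 21 of 630 rose, beside 3.67%, and 1 fell, beside 0.0357%, and in Δpht1 1 of 125, beside 0.54%. None was called in Δash2, Δssu72, Δswd1 or on the array labelled SPCC162.01c by limma at the adjusted threshold. There 26 of 485, 44 of 302, 19 of 294 and 23 of 1056 first introns had an unadjusted p under 0.05 in either direction. With no change at all, a share of about 0.05 would pass unadjusted. The share of first introns called was near the background of all introns in each of these strains.

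**Figure D5:**
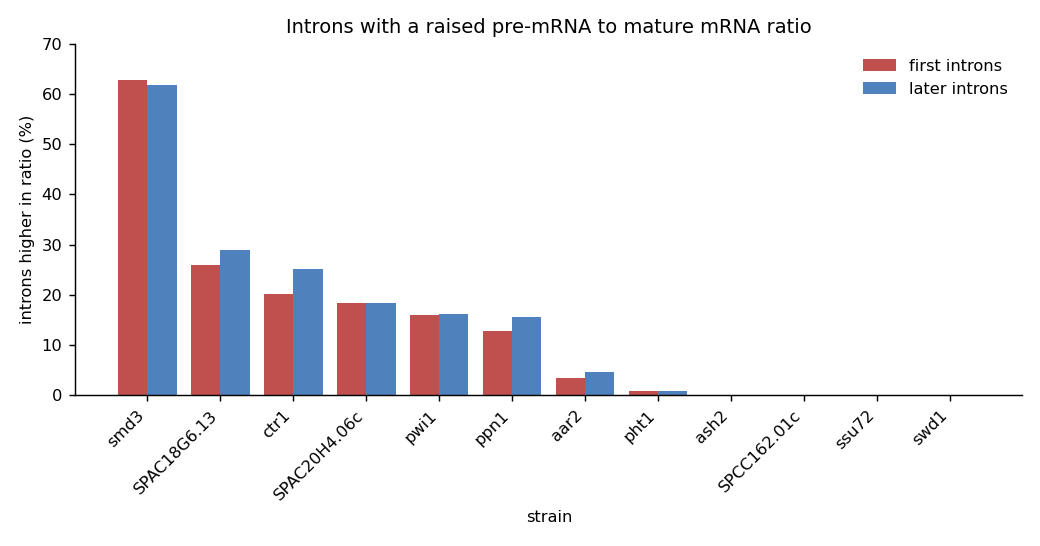
Percent of tested introns called higher in the log2 ratio of intron to junction (limma, adjusted p under 0.05) in each strain, for first introns (red) and later introns (blue) of genes with 2 to 5 introns. Both bars are highest on the arrays labelled smd3, 62.9% and 61.9%, and both are 0 in 4 strains.

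Over all 12 strains, 570 of 4827 tests on first introns were called higher, 11.8%, against 1218 of 9446 on later introns of the same genes, 12.9%, and 635 of 4939 on the introns of single-intron genes, 12.9%. Falls were few, 12 tests on first introns. They were 6 in the strain ctr1, beside 0.994% of all introns called lower, 3 on the arrays labelled SPAC18G6.13, beside 1.22%, and 1 each in Δppn1, beside 0.258%, in Δpwi1, beside 0.184%, and in Δaar2. Without replicate 2 labelled ctr1 there were 42 falls, without either 1 of the Δaar2 arrays 3, without either 1 of the Δpwi1 arrays 7, and without replicate 1 or 2 labelled SPAC18G6.13 3 and 5. Of the 1065 first introns tested, 313 rose in 1 or more strains and 10 fell. The same count was not made over all introns, of whose tests 12.2% were called higher. The counts of calls moved with single arrays. Without replicate 2 labelled ctr1, 940 tests were called higher in all and 204 of these in the strain ctr1, and without replicate 1 of that strain none was called in it. With only 1 of its 2 arrays, a strain had 0 calls for Δaar2 and ΔSPAC20H4.06c, 0 or 13 for Δppn1, 8 or 12 for Δpwi1, 0 or 39 for SPAC18G6.13 and 173 or 217 for smd3, under the assumption that the single array varied like the other strains. Without replicate 1 labelled smd3 and Δpwi1 replicate 1 together, the counts were 33 in the strain ctr1, 4 in Δaar2 and 8 in Δpwi1.

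A raised ratio was made up mostly of more intron signal and, to a lesser extent, of less junction signal. On the arrays labelled smd3, the 259 raised first introns had a median log2 ratio of 1.02 for the intron probe and -0.44 for the junction probe. The intron probe alone was called higher for 209 of them and the junction probe called lower for 101, where 20.9% of all junctions tested were called lower. In the other strains with over 1 call, the median of the intron probe lay between 0.81 in Δaar2 and 1.01 in ΔSPAC20H4.06c, and that of the junction probe between -0.52 in Δaar2 and -0.31 in ΔSPAC20H4.06c. The junction probe was below 0 for all 21 raised first introns in Δaar2 and for 66 of 75 in the strain ctr1. Among all first introns with this junction tested, it was above 0 in 38.4% in Δaar2 and in 35.9% in the strain ctr1. The raised introns were picked for a high value of intron minus junction. High intron and low junction values among them therefore follow in part from that choice. On the intron probe alone, 564 of 5652 tests on first introns were called higher, 9.98%, and 39 lower, 0.69%, against 11.97% and 0.30% of tests on later introns, and 11.1% and 0.48% of those on all introns.

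By strain, the intron probe was called higher for 247 and lower for 3 of 491 first introns on the arrays labelled smd3, beside 50% and 0.649% of all introns tested. The strain ctr1 had 87 higher and 23 lower of 446, beside 23.7% and 2.95%, and the arrays labelled SPAC18G6.13 had 91 and 9 of 404, beside 23.5% and 1.55%. Δpwi1 had 40 of 415 higher, beside 11.4%, Δppn1 37 of 309 higher and 2 lower, beside 15.2% and 0.645%, and ΔSPAC20H4.06c 37 of 241 higher and 1 lower, beside 14.8% and 0.19%. Δaar2 had 15 of 732 higher, beside 3.8%, Δssu72 6 of 356 higher, beside 2.54%, with none lower beside 0.0635%, and Δpht1 4 higher and 1 lower, beside 1.92% and 0.822%. No first intron was called in pre-mRNA in Δash2, Δswd1 or on the array labelled SPCC162.01c by limma. There 44 of 569, 35 of 347 and 26 of 1180 had an unadjusted p under 0.05. First introns were thus called higher at or below the share of all introns in every strain with calls except smd3, ΔSPAC20H4.06c and Δpht1, where it was slightly above, and these differences were not tested. The pre-mRNA total was 953 higher and 107 lower without replicate 2 labelled ctr1.

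First and later introns of 1 gene were not always called together. A call in 1 intron without a call in another is not a test of a difference between them. That difference was tested in pre-mRNA, as given below. For the label smd3, 269 genes had both intron 1 and a later intron tested in ratio. Both intron 1 and a later intron were called higher in 143, intron 1 alone in 40, only a later intron in 54 and neither in 32. In Δpwi1 the same counts were 11, 23, 39 and 140 of 213 genes, and in the strain ctr1 20, 23, 41 and 123 of 207. In ΔSPAC20H4.06c they were 8, 10, 19 and 47 of 84 genes, and in Δppn1 8, 10, 11 and 92 of 121. Genes with more introns gave a later intron more chances of a call. By the number of introns, 66.5% of first introns rose on the arrays labelled smd3 in genes with 2, 60.3% in genes with 3, 53.7% in genes with 4 and 8 of 16 in genes with 5, and the later introns rose in 65.4%, 65.95%, 54.2% and 54.6%. No such order was seen in Δpwi1, with 26 of 198, 20 of 103, 8 of 40 and 3 of 15 first introns.

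Some first introns rose in many strains. Those of rpc25, an RNA polymerase III subunit gene, of SPCC132.03 and of taf13 rose in ratio in 7 strains. All 3 rose in Δaar2, Δppn1, Δpwi1, ΔSPAC20H4.06c, the strain ctr1 and the arrays labelled smd3 and SPAC18G6.13. Those of atp1, the alpha subunit gene of the mitochondrial ATP synthase, of mmp1, of sfc9, a TFIIIC subunit gene, of sac3, a gene of mRNA export, of mmi1 and of tom20 rose in 6. Of the 313 raised first introns, 179 rose in only 1 strain. Such counts by number of strains were not made over later introns or all introns, so they do not show a trait of first introns. All strains were read against the same wild type. These 9 genes were listed for the number of strains after their values were seen.

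The difference between intron 1 and the later introns of its gene was then tested in each strain. On the arrays labelled smd3, intron 1 was above in 26 and below in 46 of the genes tested, beside 6.97% and 12.9% of all genes tested. On those labelled SPAC18G6.13 it was above in 15 and below in 21 of 238, beside 5.86% and 8.2%. In Δpwi1 it was above in 11 and below in 9 of 261, beside 4.2% and 3.5%, in Δppn1 above in 4 and below in 13 of 159, beside 2.33% and 7.56%, and in the strain ctr1 above in 5 and below in 2 of 277, beside 1.68% and 0.673%. In ΔSPAC20H4.06c it was above in 5 and below in 4 of 113, beside 4.07% in each direction, and on the single Δpht1 array above in 2 and below in 2 of 57, beside 3.39% in each direction. No gene passed in the other 5 strains by limma, and there 105 genes of 599 in Δaar2, 30 of 388 in Δash2, 15 of 1179 on the array labelled SPCC162.01c, 30 of 211 in Δssu72 and 14 of 173 in Δswd1 had an unadjusted p under 0.05. The total over strains was 68 above and 97 below. It became 135 and 207 without replicate 2 labelled ctr1, and 29 and 29 without replicate 1 labelled smd3 and Δpwi1 replicate 1. Without replicate 1 of Δaar2, and likewise without replicate 2, it was 29 and 45, without Δpwi1 replicate 1 it was 43 and 63, without Δpwi1 replicate 2 it was 44 and 64, without replicate 2 labelled smd3 those below numbered 56, and without replicate 1 labelled SPAC18G6.13 those above numbered 43.

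In Δpwi1, intron 1 rose far above the later introns of its gene in several genes. Intron 1 of ecm14, which encodes a protein of the metallocarboxypeptidase family, was at 4.23 and 4.46 in log2 ratio on the 2 Δpwi1 arrays, and between -1.07 and 0.50 on the 18 others. The mean of its later introns was 0.65 and 0.89 in Δpwi1. The within-gene difference was 3.58 ± 0.22 (SE, n = 2, limma adjusted p = 2.2e-06), and the ratio to mature mRNA was 5.51 ± 0.28, with the junction of exons 1 and 2 at -1.49 and -0.84. Total mRNA was 0.89 and 0.49 by the exon probe. The ecm14 transcript was thus higher in intron 1 and lower across the first junction on both arrays, while its exon probe was above 0.

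For wbp1, a subunit gene of the oligosaccharyltransferase, intron 1 was at 4.28 and 2.24 in Δpwi1 and the later introns at -0.15 and 0.34 on average. The within-gene difference was 3.17 ± 0.64 (SE, n = 2, limma adjusted p = 0.015). Intron 1 of wbp1 was also at 3.09 on replicate 1 labelled SPAC18G6.13 but at 0.23 on replicate 2, and at 0.85 or below on the other arrays. For tfa1, a TFIIE subunit gene, intron 1 was at 3.25 and 2.74 in Δpwi1 while intron 2 was at -0.22 and 0.22, a difference of 2.99 ± 0.25 (SE, n = 2, limma adjusted p = 0.00021). On the 17 other arrays that measured it, intron 1 of tfa1 lay between -0.15 and 1.53. For ubp9, a ubiquitin hydrolase gene, intron 1 was at 1.98 and 1.84 and intron 3 at 0.28 and 0.31, with 0.82 as the highest value of intron 1 on 9 other arrays. Intron 1 was thus the raised intron on both arrays in all 4 of these genes. The within-gene call of wbp1 was lost without Δpwi1 replicate 1 (limma adjusted p = 0.36) and that of ubp9 without either array (adjusted p = 0.10 and 0.056), whereas those of ecm14 and tfa1 and the ratio calls of all 4 genes held without either.

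Other genes showed the reverse in Δpwi1. In SPBC21B10.09, intron 1 was at -0.34 and 0.25 and intron 2, the only later intron measured there, at 3.67 and 4.07. The difference was -3.92 ± 0.43 (SE, n = 2, limma adjusted p = 0.0019). In mug64, a gene named for its rise in meiosis, intron 1 was at -0.39 and 0.42 and intron 2 at 2.84 and 2.83. Intron 3 of mug64 was at 0.15 on replicate 2 and had no value on replicate 1. Its difference was therefore taken against intron 2 alone on replicate 1, at -3.235, and against introns 2 and 3 on replicate 2, at -1.07. The junction probe of exons 2 and 3 of SPBC21B10.09 was at -1.16 and -0.30, while that of exons 1 and 2 was at 0.44 and 0.46. Intron 2 was thus the raised intron in Δpwi1 in these examples. Intron 2 of SPBC21B10.09 was also at 2.42 on replicate 2 labelled smd3. The within-gene call of SPBC21B10.09 was lost without either Δpwi1 array (limma adjusted p = 0.081 and 0.056), and that of mug64 without replicate 1 (adjusted p = 0.16).

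For the label smd3, the largest within-gene differences with 1 sign on both arrays were of rpp102 and gor1 above and of idi1 and scs22 below. Intron 1 of rpp102, a gene of an acidic ribosomal protein, was at 1.98 and 1.84 and intron 2 at -0.16 and -0.31, a difference of 2.14 ± 0.22 (SE, n = 2, limma adjusted p = 0.0048). Intron 1 of gor1 was at 1.33 and 1.51 and intron 2 at -0.01 and -0.52. The difference in gor1 did not pass against the mean of the other strains (limma adjusted p = 0.060). In idi1, the isopentenyl diphosphate isomerase gene, intron 1 was at 0.91 and 0.28 and intron 2 at 2.91 and 2.53, a difference of -2.12 ± 0.21 (SE, n = 2, limma adjusted p = 0.013). In scs22, a gene of the VAP family, the values were -0.30 and 0.26 for intron 1 and 2.46 and 1.62 for intron 2. Intron 1 of idi1 and scs22 thus did not pass the test in pre-mRNA, and in rpp102 and gor1 intron 2 was below 0 on both arrays. With 1 or the other smd3 array left out, the within-gene call held for rpp102 and was lost for gor1, idi1 and scs22.

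The largest rises in ratio on the same arrays were of spo20, a phosphatidylinositol transfer protein gene, and of sss1, a subunit gene of the Sec61 translocon. The ratio of intron 1 of spo20 was 3.56 and 3.02, with the later introns of the gene at 1.84 and 1.70 on average in pre-mRNA. That of sss1 was 2.57 and 3.73. In sss1 the intron probe was at 2.62 and 0.93 and the junction probe at 0.05 and -2.80, so that the rise came from the intron probe on one array and mostly from the junction probe on the other.

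In the strain ctr1, in Δppn1, in ΔSPAC20H4.06c and on the arrays labelled SPAC18G6.13, tom20 had the largest within-gene difference among the calls above, between 3.35 and 3.99. Taken against the mean of the other strains, these were 0.58, 0.12, -0.12 and -0.04 (limma adjusted p between 0.85 and 0.99). The tom20 difference was thus not told apart from that of the other strains in any of them. For the label SPAC18G6.13, intron 1 of rer2, the cis-prenyltransferase gene, was at 2.12 and 1.82 and its later introns at -0.83 and -0.11 on average. Intron 1 of nup37, a nucleoporin gene, was at -1.69 and -0.38 there and intron 2 at 1.14 and 1.34. The difference in taf5, a TFIID subunit gene, was -3.97 and -0.71, which rests largely on replicate 1. Against the mean of the other strains, rer2, nup37 and taf5 did not pass there (limma adjusted p = 0.14, 0.060 and 0.14). The ratio of mrm1, a gene of mitochondrial ribosomal RNA methylation, rose by 2.96 and 2.71 there, and that of tma23 fell by 1.34 and 0.58.

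In the strain ctr1, intron 1 of mmi1 was at 2.30 and 0.91 and intron 3 at -0.75 and -0.26. The gene encodes the RNA-binding protein that marks meiotic transcripts for removal during growth, and the difference was 2.11 ± 0.38 (SE, n = 2, limma adjusted p = 0.046). Over the 16 arrays that measured both, intron 1 of mmi1 was above the later introns on 15. Intron 1 of ufd2, a ubiquitin chain assembly factor gene, was at -1.02 and -0.96 in the strain ctr1, with later introns at 0.12 and 0.18, and it also fell in ratio in Δpwi1, a call lost without either Δpwi1 array (limma adjusted p = 0.22 and 0.58). Intron 1 of idh2, an isocitrate dehydrogenase subunit gene, was at -1.49 and -0.65 with later introns at 1.25 and 0.98. The within-gene differences of mmi1, ufd2 and idh2 did not pass against the mean of the other strains (limma adjusted p = 0.44 each). The ratio of grx2, a glutaredoxin gene, rose by 3.78 and 0.96, and that of SPAC4G8.14c fell by 3.53 and 0.31, so that both averages rest largely on replicate 1.

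In ΔSPAC20H4.06c, whose deleted gene RefSeq names gpl1, intron 1 of SPAC22H10.02 was at 2.12 and 1.29 and intron 2 at 0.59 and 0.28. In ppa3, a phosphatase subunit gene, intron 1 was at 0.44 and 0.65 and intron 2 at 2.40 and 2.42, a difference of -1.86 ± 0.24 (SE, n = 2, limma adjusted p = 0.0051). In tif222, an eIF2B subunit gene, intron 1 was at -0.46 and -0.05 and intron 2 at 1.15 and 0.89. In Δppn1, SPAC22H10.02 was again the higher in intron 1, at 1.65 and 0.87 against -0.03 and -0.15, and intron 1 of rbd4 was at 0.18 and 0.10 with intron 3 at 2.05 and 1.36. Also in Δppn1, intron 1 of SPBC16E9.02c was at 0.44 and 0.26 and intron 2 at 3.16 and 1.96. Against the mean of the other strains, SPAC22H10.02, rbd4 and SPBC16E9.02c did not pass in Δppn1 (limma adjusted p = 0.68, 0.29 and 0.74). Nor did SPAC22H10.02 and tif222 in ΔSPAC20H4.06c (limma adjusted p = 0.62 and 0.47). The ratio of cog5, a Golgi complex gene, rose by 2.66 and 1.90 in Δppn1 and that of pkp1 fell by 1.15 and 0.84. In Δaar2 the ratio of mbx1 rose by 2.49 and 1.55 and that of caf16 fell by 1.31 and 0.78. Each call named in the strains ctr1, aar2, ppn1, SPAC18G6.13 and SPAC20H4.06c was lost with 1 or the other of its own arrays left out.

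The arrays with mat3-Mc near 0 also differed in SPBC16E9.02c. Its within-gene difference lay between -3.09 and -0.69 on 14 other arrays, and at 1.15 on replicate 1 labelled smd3 and 0.07 on Δpwi1 replicate 1. As for tom20, these arrays did not overlap with the others, and the part of mating type in this was not tested.

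Gene groups were described by their counts beside those of all first introns in the class. A test here is 1 gene in 1 strain, so that a gene can count more than once. Of the tests on first introns of RNA decay and silencing genes, 16 of 75 were called higher in ratio, 21.3%, beside 11.8% of all tests. Of these 16 calls, mmi1 alone gave 6, and 7 were on the arrays labelled smd3. By gene, 7 of the 17 tested rose in 1 or more strains, beside 313 of 1065 in the class. For the listed ribosomal protein genes it was 3 of 16, 18.8%. That list left out rpp102, whose intron 1 rose in ratio in 4 of 8 strains. Transcription and chromatin genes gave 36 of 225 and meiosis and mating genes 18 of 128, 14.1%. Ubiquitin and proteasome genes gave 17 of 195, 8.72%, with 3 falls, cytoskeleton genes 6 of 73, 8.22%, spliceosome genes 9 of 110, 8.18%, and genes of membrane traffic and small GTPases 14 of 215, 6.51%. For the label smd3 the group medians of the ratio ran from 0.55 for 8 spliceosome genes to 1.58 for 3 listed ribosomal protein genes. The median was 1.06 for all 412 first introns. No group was tested as a whole.

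Within the groups, the core spliceosome gene sme1 rose in ratio by 3.76 and 2.33 in Δpwi1, and lsm6, of the U6 particle, by 2.03 ± 0.38 (SE, n = 2) in Δppn1. On the arrays labelled smd3, rps29 and rps13, of the small ribosomal subunit, rose by 1.73 ± 0.31 and 1.58 ± 0.29 (SE, n = 2 each). There the RNA polymerase II subunit gene rpb4 rose by 2.81 and 2.64, the proteasome subunit gene pre6 by 2.34 and 2.51, and cdc4, the myosin light chain gene of the contractile ring, by 2.41 and 2.48. The vesicle fusion factor gene sec17 rose there by 1.99 ± 0.25, the clathrin adaptor gene apm1 by 1.97 ± 0.29, the dynein gene dli1 by 1.75 ± 0.44 and mug170 by 2.24 ± 0.30. In Δpwi1, rrp17 rose by 1.63 and 2.15. The rrp17 call was lost without either Δpwi1 array (limma adjusted p = 0.059 and 0.13), that of sme1 without Δpwi1 replicate 1 (adjusted p = 0.091) and that of dli1 without replicate 1 labelled smd3 (adjusted p = 0.088). Both arrays of a strain moved the same way for each gene given with both values.

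In within-gene differences over strains, 2 of 5 RNA decay and silencing genes lay above and none below, with a median of 0.22, while the median was -0.10 over all 390 genes, of which 5.9% lay above and 23.6% below. Of 6 cytoskeleton genes 4 lay below and none above, with a median of -0.41, and of 11 meiosis and mating genes 3 lay below and 1 above, with a median of -0.34. Of 17 transcription and chromatin genes 6 lay below and 1 above, and of 6 spliceosome genes 3 lay below. Of 19 membrane traffic genes 5 lay below, of 17 ubiquitin and proteasome genes 5 and of 6 listed ribosomal protein genes 1. The gene rpp102, left out of that list, lay above, at 1.01 ± 0.20 (SE, 10 strains).

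Genes that the study itself discusses supplied 11 first introns of the class, which gave 46 tests in ratio. Of these, 5 were higher and none lower, beside 12.2% and 0.22% of the tests on all introns. Intron 1 of red1, a gene of nuclear RNA surveillance, rose in the strain ctr1 by 1.08 ± 0.30, in Δpwi1 by 1.06 ± 0.30 and on the arrays labelled smd3 by 0.70 ± 0.30 (SE, n = 2 each). The other 2 were the genes named by their strain, ppn1 in Δppn1 and smd3 on the arrays labelled smd3. In Δppn1 the ratio of ppn1 was 1.36 and 2.28, with the intron probe at 0.08 and -1.48 and the junction probe at -1.29 and -3.75. In this deleted gene the junction signal was thus lower than the intron signal on both arrays. Its exon probe was at -2.94 and -4.40 there. The ratio of ppn1 in Δppn1 therefore cannot be read as pre-mRNA against mature mRNA of an intact gene. For smd3 the ratio was 1.25 and 1.08, with the intron probe at 0.60 and -0.06 and the junction probe at -0.66 and -1.14. Within the gene, intron 1 of smd3 lay below its later introns on the arrays labelled smd3 (-1.11 ± 0.33, SE) and SPAC18G6.13 (-1.34 ± 0.33, SE), the 2 calls among 41 tests, beside 1.61% above and 2.35% below in the tests on all genes. Each of these calls was lost with 1 or the other array of its strain left out.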

How the data were processed

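The authors deposited 1 log2 value per probe and 2-colour array, the deletion strain relative to the wild type, after their own processing. No source used here states how background was corrected, how arrays were normalized or why some values were left empty. Both deposited tables held the same values in all 304160 cells. Here, the ratio of an intron was its value minus that of its junction, and the within-gene difference was intron 1 minus the mean of the later introns measured on the array. Each was fitted with limma 3.58.1 in R 4.3.3, with 1 mean per strain over the 20 arrays, tested against 0 and adjusted by Benjamini-Hochberg over all features measured on every array of the strain. Strains with 1 array borrowed their spread from the 8 strains with 2. The fit over strains used 1 mean per strain and genes in 8 or more strains. The difference of a strain from the mean of the others came from the same fit, with 4 or more other strains. SE and p-values within a strain use, per feature, the spread between 2 arrays of a strain, pooled over the strains with 2. They do not measure the spread of the named strain alone, and arrays of doubtful label are included. A feature therefore has the same SE in each strain with 2 arrays, and n = 2 counts that strain's arrays. P-values over strains measure the spread between strains. The fits were tested on simulated data, with noise drawn independently for each array and a minority of features changed in each strain. The share called depends on how many features change. The values below therefore do not apply to arrays with many calls, such as those labelled smd3. In ratio, a change of 1 log2 unit was called in 17.7% of features with 2 arrays and 2.5% with 1. A change of 2 units was called in 94.7% and 42.1%, and unchanged features in 0.163% and 0.0734%. The absence of calls in a strain with 1 array therefore does not show that nothing changed. The number of arrays limits the precision, and array signal gives no read depth.

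Identifiers were matched to RefSeq names for 1165 first introns. The table's genome assembly was not compared with the arrays' design, so no coordinates or sequences are given. Identifiers started with n for 13 first introns and with m for 1, and some genes had their introns split between such an identifier and the plain one. The members and the gene lists were chosen with earlier results of these data known. Genes were named by rule, as follows. Over strains, the 8 largest and 8 smallest called differences with 1 sign in every strain were named, of which 4 existed above. In each strain with 2 arrays, 2 genes above and 2 below within the gene, and 2 rises and 1 fall in ratio, were named where called with 1 sign on both arrays. To these were added the class genes that the study discusses and the 2 members of each list with the largest called ratio.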

Additional observations from a re-analysis of the deposited data

Results flagged for a closer look

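For 11 named genes the difference between intron 1 and the later introns in a strain differed from the mean of the other strains in the same fit (limma, adjusted over all genes tested in that contrast). In Δpwi1, intron 1 was relatively higher for ecm14 by 3.70 ± 0.23 (SE, 9 other strains, adjusted p = 3.1e-06), for wbp1 by 3.41 ± 0.69 (8 other strains, adjusted p = 0.020), for tfa1 by 2.71 ± 0.28 (8 other strains, adjusted p = 0.00065) and for ubp9 by 1.89 ± 0.21 (5 other strains, adjusted p = 0.0035). It was relatively lower there for mug64, at -2.24 ± 0.41 (10 other strains, adjusted p = 0.0080), and for SPBC21B10.09, at -3.31 ± 0.48 (7 other strains, adjusted p = 0.0068). The mug64 value rests on unlike sets of later introns on the 2 Δpwi1 arrays. On the arrays labelled smd3 the difference was 1.26 ± 0.24 for rpp102 (9 other strains, adjusted p = 0.042), 1.03 ± 0.24 for spo20 (8 other strains, adjusted p = 0.045), -1.58 ± 0.25 for idi1 (5 other strains, adjusted p = 0.048) and -1.94 ± 0.41 for scs22 (9 other strains, adjusted p = 0.035). In ΔSPAC20H4.06c it was -1.90 ± 0.26 for ppa3 (8 other strains, adjusted p = 0.0033). Over the class, this contrast called 11 of 258 genes in Δpwi1, beside 3.91% of all genes tested, 21 of 331 on the arrays labelled smd3, beside 5.93%, 6 of 237 on those labelled SPAC18G6.13, beside 2.35%, 4 of 113 in ΔSPAC20H4.06c, beside 3.25%, and 1 of 57 in Δpht1, beside 1.69%. The named genes were taken from each strain's own calls, so that their contrasts are not independent of that choice. None of the within-gene calls named in the strain ctr1 and in Δppn1 passed this contrast.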

How the results depend on the processing

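Over the named genes, no value turned its sign under any alternative run, and the call was lost in 70 of 287 values within a gene, 62 of 349 of the ratio and 3 of 224 over strains. Of 67 named calls in strains with 2 arrays, 17 held without either array of the strain. Leaving out 1 array at a time, first introns higher in pre-mRNA numbered 440 to 953 and lower 27 to 107, those higher in ratio 393 to 940 and lower 3 to 42, and intron 1 was above the later introns in 29 to 135 tests and below in 45 to 207. Over strains, leaving out 1 strain gave 12 to 25 above and 57 to 96 below. Within a strain, the ratio counts without 1 array were 0 for Δaar2, 0 to 204 for ctr1, 0 to 13 for Δppn1, 8 to 12 for Δpwi1, 173 to 217 for smd3, 0 to 39 for SPAC18G6.13, 0 for ΔSPAC20H4.06c and 0 for Δssu72.

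Without the 6 arrays of doubtful label, 639 were higher and 122 lower in pre-mRNA, 607 higher and 44 lower in ratio, and 92 above and 145 below within genes. The ratio counts were then 108 for Δaar2, 2 for Δash2, 216 for ctr1, 8 for Δpht1, 77 for Δppn1, 100 for Δpwi1, 70 for ΔSPAC20H4.06c, 24 for Δssu72 and 2 for Δswd1. Over strains there were 8 above and 24 below among 126 genes, and 11 and 39 among 297 genes in 6 or more strains. With features on all 20 arrays only, so with fewer features tested, 149 were higher and 3 lower in pre-mRNA, 149 and 0 in ratio, and 30 above and 19 below within genes. The ratio counts were 25 for ctr1, 9 for Δppn1, 20 for Δpwi1, 38 for smd3, 23 for SPAC18G6.13, 13 for ΔSPAC20H4.06c and 1 for Δssu72. With each strain's own arrays only, they were 46 for Δaar2, 1 for ctr1, 16 for Δppn1, 89 for Δpwi1, 92 for ΔSPAC20H4.06c and 42 for Δssu72, and 43 were above within genes. With trend and robust estimation they were 0 for Δaar2, 21 for Δppn1 and 19 for ΔSPAC20H4.06c. Without smd3 replicate 1 and Δpwi1 replicate 1, chosen after seeing the data, they were 4 for Δaar2, 1 for Δash2, 33 for ctr1, 2 for Δpht1, 8 for Δpwi1, 1 for Δssu72 and 1 for Δswd1, with 5 lower in all and 29 above and 29 below within genes. The cause of these changes was not tested.

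Over strains, intron 2 alone gave 15 above, the ratio 59 below, genes in all 12 strains 6 above and 12 below, replicate 1 arrays 11 above and 24 below, and replicate 2 arrays 53 below. The labels do not say what a replicate number marks, and the numbers were not taken to pair the arrays, since not every pair of strains exceeded a correlation of 0.1. The median correlation of deviations of same-numbered arrays was 0.17 in pre-mRNA, 0.23 in ratio and 0.14 within genes, and 18, 24 and 17 of 28 pairs exceeded 0.1. The lowest was -0.086, 0.0093 and -0.18, so that in ratio all 28 were above 0, a hint from the data that same-numbered arrays deviated together. With the replicate number as a block, 544 were higher in pre-mRNA and 676 in ratio, 19 were lower in ratio, 94 lay above and 145 below within genes, and the ratio counts were 43 for Δaar2 and 1 for Δssu72. Genes whose number of introns equals that of a reference annotation were not run, for want of a genome. The number of arrays per strain limits these counts, and array signal gives no depth.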
